A study of Mus musculus with 7 samples.

Results

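The ISG15 conjugation system attaches the small ubiquitin-like protein ISG15 to other proteins. The 6 genes described here are Isg15, Usp18, Uba7, Ube2l6, Herc6 and Trim25, found by symbol among the 55401 genes of the deposited table of counts. All 6 passed the filter on low counts and were among the 19199 genes tested. The libraries come from CD11b-enriched microglia of the dorsal hippocampus of C57BL/6 mice aged 6 to 8 weeks, described as male. AAV-RAM-Cre was injected into the dentate gyrus of every mouse; this virus has a synthetic promoter that responds to neuronal activity and so directs Cre to recently active (engram) neurons. The EYFP group (4 libraries, EYFP 1 to 4) was also given the Cre-dependent AAV-Dio-EYFP, and the ATG7 group (3 libraries, ATG7 1 to 3) the Cre-dependent AAV-Dio-Atg7-Flag. Atg7 encodes an enzyme of autophagy, and its overexpression was directed at neurons, not at the microglia sequenced. The labels do not say whether a library is 1 mouse or a pool, so p-values measure the spread between these libraries.

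Interferon-stimulated gene 15 is made as a precursor and activated like ubiquitin. UBA7 is its activating (E1) enzyme, UBE2L6 its conjugating (E2) enzyme, and HERC6, the main ligase (E3) in the mouse, passes it to target proteins. TRIM25 is a ligase for ubiquitin and has also been described as one for ISG15. USP18 removes ISG15 from its targets and, apart from that activity, binds the interferon receptor subunit IFNAR2 and restrains signalling. All of these genes are known to be induced by type I interferon, and in the brain microglia are among the cells that express them.

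Library totals ranged from 35934210 to 55217119 counts. The 10 microglial markers summed to between 20611 and 25294 CPM (counts relative to the scaled library total), and all were detected. Choroid plexus markers, 8 genes, summed to between 46592 and 72460 CPM, so the preparations also held much RNA of that epithelium. The library labelled EYFP 3 did not match a male label: Xist, expressed from the inactive X chromosome of females, was at 938.5 CPM there and at most 0.574 CPM elsewhere. The Y-linked Ddx3y was also detected in EYFP 3, at 27.6 CPM against 121.1 to 168.7 CPM in the other libraries. Values without EYFP 3 are given for each of the 6 genes and for part of the other results. In bulk RNA of this kind, a different number of cells of a type and a different amount of RNA per cell cannot be told apart.

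All 6 genes were higher in ATG7, and in each of them every ATG7 library lay above every EYFP library. Such separation was seen upward in 6.33% of all genes tested and downward in 4.91%. Isg15, Usp18, Ube2l6 and Trim25 passed the two-sided quasi-likelihood test of edgeR at 0.05, adjusted over all genes by the method of Benjamini and Hochberg. Uba7 and Herc6 did not pass. Of all genes tested 0.688% were called higher, 0.0677% lower and 0.755% in either direction. The median log2 fold change was 0.73 over the 6 genes and -0.0037 over all genes tested. With EYFP 1 left out all 6 were called, among 277 genes in all, where the full set gave 145. Without EYFP 2 the count was 1 of 6 (94 genes in all) and without EYFP 3 it was 3 of 6 (164 genes). It was 0 of 6 without EYFP 4 (30 genes), without ATG7 2 (28 genes) or without ATG7 3 (30 genes).

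**Figure D1:**
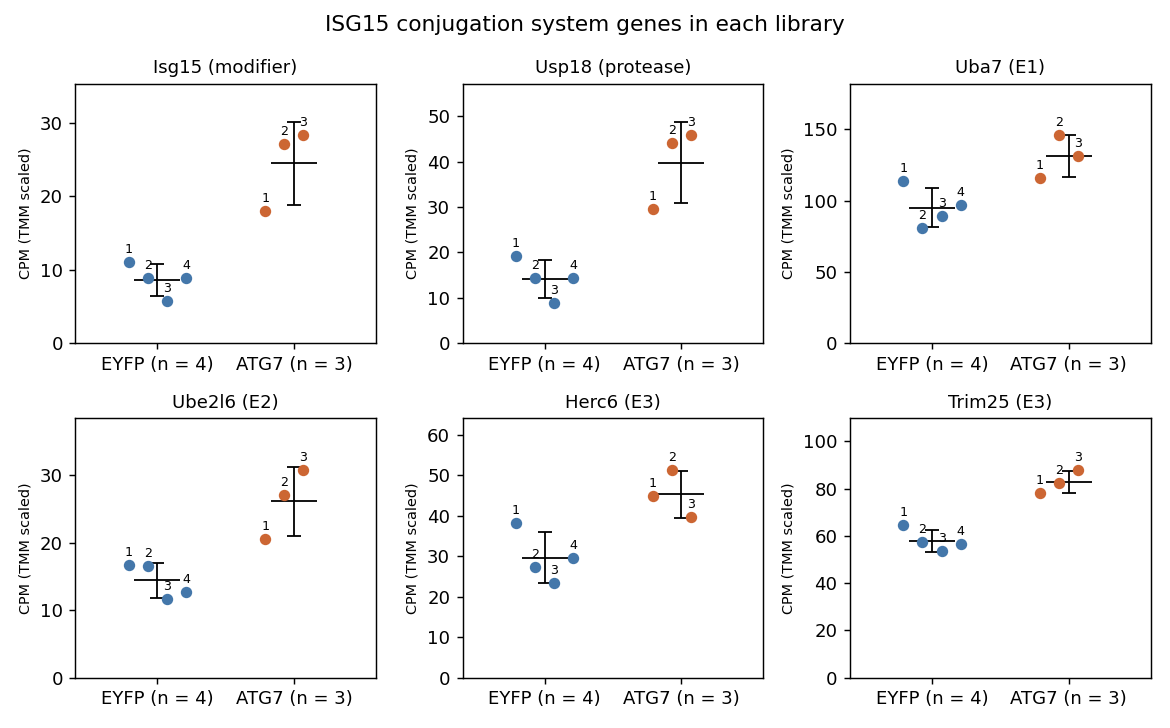
Level of each of the 6 genes in every library, in CPM scaled by trimmed means of M values, on linear axes from 0. Points are libraries with their replicate numbers, the long tick is the group mean and the bar is 1 SD; in every panel the 3 ATG7 points lie above the 4 EYFP points, with the narrowest gaps for Uba7 and Herc6.

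Isg15, the modifier itself (ENSMUSG00000035692, chromosome 4, 156199424 to 156200818, minus strand, GRCm38), has 2 exons in the annotation. It stood at 11.0, 8.81, 5.65 and 8.86 CPM in the EYFP libraries and at 18.0, 27.2 and 28.3 CPM in the ATG7 libraries, in replicate order. EYFP 3 was lowest and EYFP 1 highest among the controls, and the lowest ATG7 library was 1.63 times the highest EYFP library. The group means were 8.58 ± 2.21 CPM in EYFP (SD, n = 4) and 24.5 ± 5.66 CPM in ATG7 (SD, n = 3). Isg15 rose by 1.52 log2 units (SE 0.217, edgeR adjusted p = 0.0182). Ranked from the highest, this fold change was number 97 of 19199. Without EYFP 3 the log2 fold change was 1.35 (edgeR adjusted p = 0.00602). The call was lost without EYFP 2 (adjusted p = 0.0795), EYFP 4 (0.0676), ATG7 2 (0.0800) or ATG7 3 (0.0942), and with no filter on low counts (0.0591), at log2 fold changes between 1.39 and 1.53 (edgeR).

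Usp18, the protease that removes ISG15 (ENSMUSG00000030107, chromosome 6, 121245906 to 121270917, plus strand), was at 19.2, 14.3, 8.89 and 14.3 CPM in EYFP 1 to 4. In ATG7 1 to 3 it was at 29.5, 44.0 and 45.8 CPM. The libraries fell in the same order as for Isg15, from EYFP 3 at the bottom to ATG7 3 at the top. The group means were 14.2 ± 4.20 CPM in EYFP (SD, n = 4) and 39.8 ± 8.97 CPM in ATG7 (SD, n = 3). Usp18 rose by 1.49 log2 units (SE 0.248, edgeR adjusted p = 0.0420). Without EYFP 3 it was 1.32 (edgeR adjusted p = 0.0101). The adjusted p rose to 0.177 without EYFP 2, 0.119 without EYFP 4, 0.183 without ATG7 2, 0.152 without ATG7 3 and 0.168 with no filter, with log2 fold changes of at least 1.37 (edgeR).

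The level of Usp18 relative to Isg15 was nearly constant from library to library. This pair was singled out after its values were seen. Isg15 made up between 36.5% and 38.9% of the counts of both genes together in the 7 libraries. The lowest share, in EYFP 1, had an exact binomial 95% interval of 33.6% to 39.4%, and the highest, in EYFP 3, one of 35.1% to 42.7%; these intervals cover counting error only. The ratio of their counts had a coefficient of variation of 3.09% over the 7 libraries, where counting error alone gives a median of 6.25%. In the other 14 pairs of the 6 genes it lay between 9.11% (Uba7 and Trim25) and 42.4% (Isg15 and Uba7). Without EYFP 3 it was 2.89% for Isg15 and Usp18 and between 9.26% and 39.4% for the others. The exact intervals of all 7 libraries overlapped, although the levels themselves differed 5.01-fold between EYFP 3 and ATG7 3 for Isg15.

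Promoter sequence was taken from the RefSeq table on GRCm38.p6, which held 250 bases before and 50 after the start site for 5 of the 6 genes. Shown are Isg15 and the called members Ube2l6 and Trim25, because these rose together. Capitals mark matches to the core of the interferon-stimulated response element (ISRE), which a complex holding STAT2 and IRF9 binds: GAAA, any 2 bases, GAAA, searched on both strands.
Isg15: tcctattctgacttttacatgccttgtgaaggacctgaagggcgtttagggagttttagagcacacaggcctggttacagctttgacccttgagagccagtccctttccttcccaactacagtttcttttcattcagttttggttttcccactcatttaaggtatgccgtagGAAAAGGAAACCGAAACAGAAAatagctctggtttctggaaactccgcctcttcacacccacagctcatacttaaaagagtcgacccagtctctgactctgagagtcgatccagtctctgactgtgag
Ube2l6: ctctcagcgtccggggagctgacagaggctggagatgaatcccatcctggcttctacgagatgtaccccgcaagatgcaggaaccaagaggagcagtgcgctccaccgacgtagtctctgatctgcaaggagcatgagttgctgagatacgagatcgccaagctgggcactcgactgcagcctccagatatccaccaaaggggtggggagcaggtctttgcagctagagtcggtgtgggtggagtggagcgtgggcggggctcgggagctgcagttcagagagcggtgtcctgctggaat
Trim25: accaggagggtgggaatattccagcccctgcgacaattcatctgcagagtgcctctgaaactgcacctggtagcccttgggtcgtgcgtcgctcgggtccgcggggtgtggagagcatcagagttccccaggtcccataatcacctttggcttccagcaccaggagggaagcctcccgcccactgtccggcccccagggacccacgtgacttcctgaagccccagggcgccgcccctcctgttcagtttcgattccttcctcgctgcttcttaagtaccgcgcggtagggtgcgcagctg
The Isg15 sequence (chr4:156200769-156201068, minus strand) held 3 overlapping matches in 1 run, starting 78, 72 and 66 bases before the start site. The windows of Ube2l6 (chr2:84798578-84798877, plus strand), Trim25 (chr11:88999153-88999452, plus strand), Uba7 and Herc6 held none. Among all 32851 promoters of this length 3.44% held at least 1 match. Of the interferon-induced genes listed below, 17 of 24 had an entry, and 11 of these held a match. The gamma-activated sequence, TTC, any 3 bases, GAA, was in 0 of the 5 windows and in 8.30% of all promoters. A match describes letters and not binding, and a window without one says nothing about the rest of the gene.

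Uba7, the E1 enzyme that activates ISG15 (ENSMUSG00000032596, chromosome 9, 107975505 to 107984060, plus strand), was at 114, 81.0, 88.8 and 97.1 CPM in EYFP 1 to 4. It was at 116, 146 and 131 CPM in ATG7 1 to 3. The groups were separated by a narrow margin, with ATG7 1 at 1.02 times EYFP 1. The means were 95.1 ± 14.0 CPM in EYFP (SD, n = 4) and 131 ± 14.8 CPM in ATG7 (SD, n = 3). The difference of 0.46 log2 units (SE 0.115) did not pass (edgeR adjusted p = 0.116). Leaving out EYFP 1, the nearest control, gave 0.56 and a call (edgeR adjusted p = 0.0223). It was also called with no filter (edgeR adjusted p = 0.0206) and by DESeq2 (adjusted p = 0.0138). Uba7 was called in only these 3 of the 15 alternatives. Without EYFP 3 its log2 fold change was 0.43 (edgeR adjusted p = 0.197), and without ATG7 2 it was 0.38 (edgeR adjusted p = 0.368). The neighbouring gene Gm20661 shares 233 exonic bases with Uba7 on the same strand, and its counts over the 7 libraries came to 196.

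Ube2l6, the E2 enzyme (ENSMUSG00000027078, chromosome 2, 84798828 to 84810335, plus strand), was at 16.7, 16.6, 11.7 and 12.7 CPM in EYFP 1 to 4. In ATG7 1 to 3 it was at 20.6, 27.0 and 30.8 CPM. ATG7 1 was again the lowest of its group and ATG7 3 the highest. The group means were 14.4 ± 2.60 CPM in EYFP (SD, n = 4) and 26.1 ± 5.15 CPM in ATG7 (SD, n = 3). Ube2l6 rose by 0.86 log2 units (SE 0.160, edgeR adjusted p = 0.0388). Leaving out EYFP 3 gave 0.76 and ended the call (edgeR adjusted p = 0.0636). So did leaving out EYFP 2 (adjusted p = 0.0602), EYFP 4 (0.122), ATG7 2 (0.168) or ATG7 3 (0.188), with log2 fold changes between 0.72 and 0.93 (edgeR). Its longest coding transcript shared a stretch of at least 100 bases at 90% identity or more with transcripts of 13 other genes. Counts of these partners over the 7 libraries ran from 0 to 29376, where Ube2l6 had 518 to 1486 in each library. The count of Ube2l6 is therefore less certain than those of the others. For the other 5 genes there were 0 or 1 such partners, and that of Isg15, AC151275.1, had 42 counts over the 7 libraries.

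Herc6, the mouse ISG15 ligase (ENSMUSG00000029798, chromosome 6, 57581000 to 57664632, plus strand), was at 38.3, 27.4, 23.5 and 29.6 CPM in EYFP 1 to 4. It was at 45.0, 51.3 and 39.7 CPM in ATG7 1 to 3. Here ATG7 3, the library with the most Isg15, was the lowest of its group, at 1.04 times EYFP 1. The means were 29.7 ± 6.27 CPM in EYFP (SD, n = 4) and 45.3 ± 5.81 CPM in ATG7 (SD, n = 3). The difference of 0.61 log2 units (SE 0.150) did not pass (edgeR adjusted p = 0.123). Without EYFP 1, the highest control, it was 0.76 and passed (edgeR adjusted p = 0.00889), as it did with DESeq2 (adjusted p = 0.00796). Herc6 was called in only these 2 of the 15 alternatives. Without EYFP 3 its log2 fold change was 0.51 (edgeR adjusted p = 0.151), and without ATG7 2 also 0.51 (edgeR adjusted p = 0.360). The annotated gene Gm45193 shares 1269 exonic bases with Herc6 on the same strand and had 0 counts.

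Trim25, the ubiquitin ligase also linked to RIG-I signalling (ENSMUSG00000000275, chromosome 11, 88999376 to 89020293, plus strand), was at 64.5, 57.4, 53.7 and 56.5 CPM in EYFP 1 to 4. In ATG7 1 to 3 it was at 78.2, 82.4 and 87.8 CPM. It had the tightest groups of the 6 genes, the highest library being 1.20 times the lowest in EYFP and 1.12 times in ATG7. The group means were 58.0 ± 4.60 CPM in EYFP (SD, n = 4) and 82.8 ± 4.81 CPM in ATG7 (SD, n = 3). Trim25 rose by 0.51 log2 units (SE 0.0776, edgeR adjusted p = 0.0156). Its rank by p was 44 of 19199, ahead of Isg15 at 50, although by fold change it ranked 1068. Without EYFP 3 the log2 fold change was 0.47 (edgeR adjusted p = 0.0293). The call was lost without EYFP 4 (adjusted p = 0.0676), ATG7 2 (0.0721) or ATG7 3 (0.106), at log2 fold changes between 0.46 and 0.52 (edgeR).

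**Figure D2:**
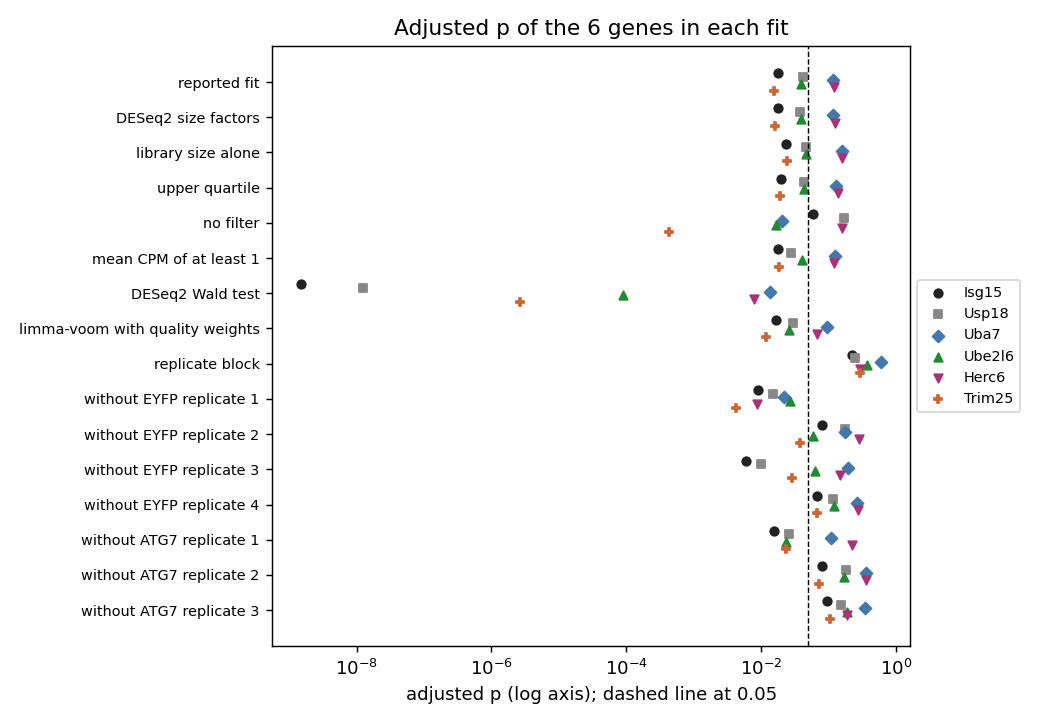
Adjusted p of the 6 genes (log axis, symbols by gene) in the reported fit and in each of the 15 alternatives (rows); the dashed line marks 0.05. Without EYFP 1 and with the DESeq2 Wald test all 6 genes lie left of the line, and with the replicate number as a block, without EYFP 4, without ATG7 2 or without ATG7 3 none does.

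EYFP 1 was the highest control for all 6 genes and EYFP 3 the lowest for 5 of them, the exception being Uba7, which was lowest in EYFP 2. EYFP 1 also had the largest sums of neuronal markers (44.0 CPM, against at most 29.9 CPM in the other 6 libraries), astrocyte markers (642 CPM, against at most 468 CPM) and oligodendrocyte markers (422 CPM, against at most 402 CPM). The sum of lymphocyte markers moved with the comparison. The 7 genes summed to 2.04 to 4.93 CPM in EYFP and to 6.07 to 16.9 CPM in ATG7, without overlap. Of the 6 of them tested, 5 (Cd3e, Cd3g, Cd8a, Nkg7 and Gzmb) had every ATG7 library above every EYFP library, as did 6.33% of all genes tested. Counts were low, from 8 to 77 in a library for Cd3e, 4 to 100 for Cd3g and 22 to 224 for Gzmb. Cd79a and Ms4a1 did not rise. Cd79a averaged 0.359 CPM in EYFP and 0.360 CPM in ATG7. Ms4a1, which did not pass the filter, averaged 0.199 CPM in EYFP and 0.116 CPM in ATG7. None of the 7 was at 0 in all libraries. Of the 6 lymphocyte genes tested edgeR called 0 and DESeq2 called 3, where DESeq2 called 582 of the 19199 genes tested. The sums did not overlap without EYFP 3 either (3.88 to 4.93 CPM in EYFP). As with Isg15, EYFP 3 was lowest and ATG7 3 highest in this sum. The marker sums of microglia, border macrophages, monocytes and neutrophils, choroid plexus, neurons, astrocytes, oligodendrocytes and endothelial cells, and the immediate-early genes, overlapped between the groups. Within the monocyte and neutrophil list, Plac8 was at 1.80 to 4.25 CPM in EYFP and 4.70 to 11.4 CPM in ATG7, without overlap, and Ly6c2 at 1.55 to 4.40 and 3.02 to 13.5 CPM. Their log2 fold changes of 1.45 and 1.47 did not pass in edgeR, and DESeq2 called 1 of the 6 genes of that list. All 8 choroid plexus and all 6 oligodendrocyte markers had log2 fold changes below 0 (medians -0.26 and -0.35), and all 6 endothelial and mural markers above 0 (median 0.30), with 0 called by edgeR or DESeq2. Plac8, Ly6c2 and the lymphocyte genes were named after their values were seen. The part of other cell types in the differences was not tested.

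The difference between the groups was larger for Isg15 than for Uba7, Ube2l6, Herc6 and Trim25. Within each library the level of each gene was divided by that of Isg15, both in CPM per kilobase of exon (FPKM); a change in such a ratio between groups does not depend on the gene lengths. In the EYFP libraries Uba7 over Isg15 was 1.17, 1.04, 1.77 and 1.24, and in the ATG7 libraries 0.729, 0.606 and 0.525. The mean log2 ratio was lower in ATG7 by a difference of -1.06 for Uba7, -0.67 for Ube2l6, -0.90 for Herc6 and -1.01 for Trim25, with no overlap between the groups for these 4. Each had an exact permutation p of 0.0286, two-sided, the smallest that the 35 splits of 7 libraries allow, and 0.0457 after adjustment over the 8 ratios computed. All 4 ratios share Isg15 as the divisor, so they are not 4 independent results. The adjusted p treats them as separate, and it is under 0.05 only because they tie at the smallest p. These ratios restate the fold changes given above, of which that of Isg15 was the largest, and add no separate support. Without EYFP 3 these 4 differences were -0.90, -0.58, -0.82 and -0.86, still without overlap, and the exact permutation p was 0.1 for each, the smallest that 20 splits allow (0.133 adjusted). For Usp18 over Isg15 the EYFP libraries averaged 0.444 ± 0.0198 (SD, n = 4) and the ATG7 libraries 0.440 ± 0.00287 (SD, n = 3), with overlap (exact permutation p = 0.971, two-sided).

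**Figure D3:**
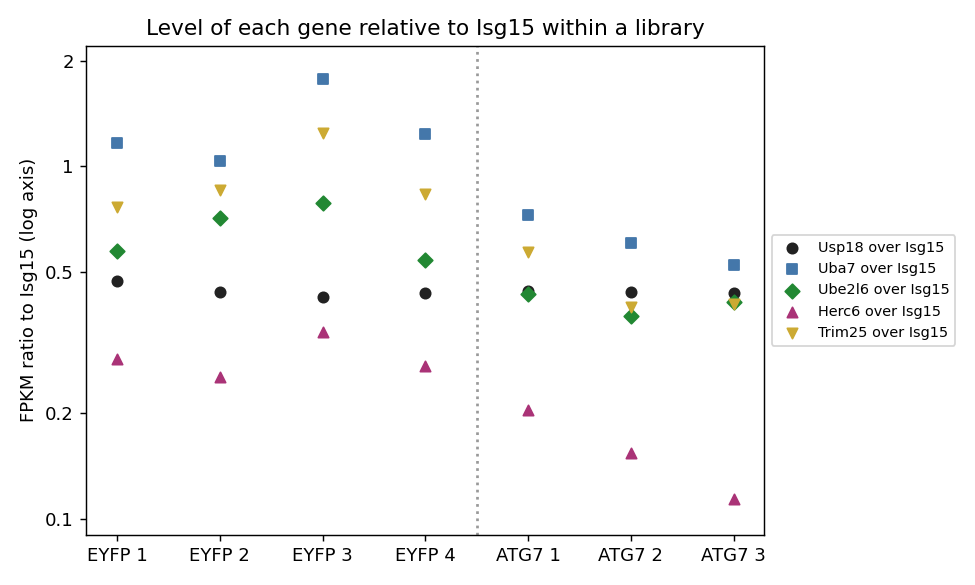
FPKM of Usp18, Uba7, Ube2l6, Herc6 and Trim25 divided by that of Isg15 in the same library, on a log axis, with 1 point per gene and library and a dotted line between the groups. The Usp18 points stay between 0.426 and 0.472 in all 7 libraries, while those of the other 4 genes are lower in every ATG7 library than in any EYFP library.

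Per kilobase of exon, Uba7 had the highest level in EYFP at 14.2 ± 2.09 FPKM (SD, n = 4), followed by Isg15 at 11.4 ± 2.92 and Trim25 at 10.1 ± 0.800 FPKM. Ube2l6 at 7.24 ± 1.30, Usp18 at 5.07 ± 1.51 and Herc6 at 3.20 ± 0.675 FPKM came below (SD, n = 4). Of these neighbours in the order, Trim25 and Ube2l6 had ranges over libraries that did not overlap, and the others overlapped. Without EYFP 3 the order was the same, and Isg15 also stood clear of Trim25 and Usp18 of Herc6. In ATG7 the order was Isg15 at 32.4 ± 7.48, Uba7 at 19.6 ± 2.21, Trim25 at 14.4 ± 0.837, Usp18 at 14.3 ± 3.21, Ube2l6 at 13.1 ± 2.58 and Herc6 at 4.88 ± 0.626 FPKM (SD, n = 3). There Trim25, Usp18 and Ube2l6 overlapped. The order depends on the length used. With the longest coding transcript in place of merged exons (3195 against 6692 bases for Uba7, 1771 against 2790 for Usp18, and 756 by either measure for Isg15), Uba7 led in ATG7 at 41.0 ± 4.64 per kilobase (SD, n = 3), with a range that overlapped that of Isg15. Usp18, at 22.5 ± 5.06 (SD, n = 3), then lay above Trim25, at 14.8 ± 0.861 (SD, n = 3), without overlap. In EYFP the order was the same by that length, but Uba7, at 29.8 ± 4.37 (SD, n = 4), stood clear of Isg15, and Trim25 and Ube2l6 overlapped.

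The closest relatives of Uba7 and Ube2l6 in the ubiquitin system did not pass the test. Uba1, the E1 of ubiquitin, was at 55.6 ± 2.99 FPKM (SD, n = 4) in EYFP and 56.3 ± 1.02 FPKM (SD, n = 3) in ATG7. Its log2 fold change of 0.02 did not pass (edgeR adjusted p = 0.952), and its sign turned with library size alone as the scaling and without EYFP 1. Ube2l3, the E2 most similar to Ube2l6, was at 17.0 ± 1.53 FPKM (SD, n = 4) and 16.9 ± 1.94 FPKM (SD, n = 3), a log2 fold change of -0.011 that did not pass (edgeR adjusted p = 0.982) and turned sign without EYFP 2, ATG7 1 or ATG7 2. Uba7 was 0.257 ± 0.0501 of Uba1 per length in EYFP (SD, n = 4) and 0.347 ± 0.0344 in ATG7 (SD, n = 3), with overlap. Ube2l6 was 0.429 ± 0.0944 of Ube2l3 in EYFP (SD, n = 4) and 0.777 ± 0.136 in ATG7 (SD, n = 3), without overlap (exact permutation p = 0.0571, two-sided, 0.0762 after adjustment over the 8 ratios). Without EYFP 3 the EYFP ratio was 0.460 ± 0.0873 (SD, n = 3), also without overlap (exact permutation p = 0.1, two-sided, 0.133 adjusted). Atg7, itself an E1-like enzyme for the ubiquitin-like proteins of autophagy, had a log2 fold change of -0.025 (edgeR adjusted p = 0.939), which turned positive without ATG7 1.

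Herc3, a relative of Herc6, moved the opposite way. It was at 34.0, 39.4, 33.0 and 40.4 CPM in the EYFP libraries, and the 3 ATG7 libraries had 21.7, 24.9 and 23.8 CPM. Herc3 fell by 0.65 log2 units (SE 0.0955, edgeR adjusted p = 0.0142), and the groups did not overlap. The call was lost without EYFP 4 (adjusted p = 0.0583), ATG7 2 (0.0569) or ATG7 3 (0.0927), with log2 fold changes between -0.69 and -0.60 (edgeR). Without EYFP 3 Herc3 fell by 0.70 log2 units (edgeR adjusted p = 0.0103). Herc6 over Herc3, per length, was between 0.682 and 1.11 in EYFP and between 1.64 and 2.04 in ATG7 (exact permutation p = 0.0286, two-sided, 0.0457 after adjustment over the 8 ratios). The adjusted value is under 0.05 only because this p ties with those of ratios that share Isg15 as divisor. Those ratios are not independent, so the adjusted value is not firm. Without EYFP 3 this ratio had no overlap either, and the exact permutation p was 0.1, the smallest that 20 splits allow (0.133 adjusted). Herc1, Herc2 and Herc4 had log2 fold changes of 0.0024, 0.14 and 0.11, and none passed (edgeR).

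Among 25 other genes of the pathway, all tested, 3 rose, 1 fell and 21 did not pass (edgeR, adjusted p under 0.05). The median log2 fold change was 0.11, against -0.0037 over all genes tested. Stat2 and Irf9 encode parts of the transcription factor complex that acts below the interferon receptor. Stat2 averaged 54.4 ± 10.7 CPM in EYFP (SD, n = 4) and 103.9 ± 8.17 CPM in ATG7 (SD, n = 3), and rose by 0.93 log2 units (SE 0.131, edgeR adjusted p = 0.0137). The call of Stat2 was lost without EYFP 2 (adjusted p = 0.0522), EYFP 4 (0.0574), ATG7 2 (0.0753) or ATG7 3 (0.0843), and without EYFP 3 its log2 fold change was 0.85 (adjusted p = 0.0107) (edgeR). Irf9 averaged 75.9 ± 4.65 CPM in EYFP (SD, n = 4) and 99.0 ± 9.06 CPM in ATG7 (SD, n = 3) and did not pass (edgeR adjusted p = 0.0590). The receptor genes Ifnar1 and Ifnar2 and the kinase genes Jak1 and Tyk2, whose signalling USP18 restrains, did not pass, with log2 fold changes between 0.084 and 0.18.

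Ddx58, also of that list, encodes the RNA sensor RIG-I, a protein that TRIM25 modifies. It was higher by 0.64 log2 units (SE 0.102, edgeR adjusted p = 0.0206). Mavs, the adaptor below it, had a log2 fold change of 0.034 and did not pass (edgeR). Itgal and Itgb2, which form the integrin LFA-1 to which free ISG15 can bind, had log2 fold changes of 0.95 and 0.30 and did not pass (edgeR adjusted p = 0.152 and 0.262). Other proteases described as acting on ISG15, 6 genes, had log2 fold changes between -0.65 and 0.024, and 0 of 6 passed. The count of called genes in the pathway list was 7 without EYFP 1, 2 without EYFP 2, and 1 without EYFP 4, ATG7 2 or ATG7 3, where the full set gave 4. By DESeq2 it was 7, among 582 genes called in all, and by limma-voom 5, among 208.

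Of 33 genes for ubiquitin and the other ubiquitin-like modifiers and their enzymes, 32 were tested, and Ubd did not pass the filter. None was called by edgeR. At an unadjusted p under 0.05, 3 of the 32 were higher and 0 lower, where 6.27% of all genes tested were higher; limma-voom called 0 and DESeq2 called 1. Without EYFP 2 the count was 1. The median log2 fold change was 0.018.

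Interferon-induced genes outside the ISG15 system, 24 in number and all tested, had a median log2 fold change of 1.34. Of these 9 rose, 0 fell and 15 did not pass (edgeR), and in 23 every ATG7 library lay above every EYFP library. By limma-voom 15 were called higher and by DESeq2 22, with 0 lower by either, and 0 were lower at an unadjusted p under 0.05 in edgeR. Over all 19199 genes tested limma-voom called 183 higher and 25 lower, and DESeq2 406 higher and 176 lower. Gbp2, an interferon-induced GTPase, rose by 1.14 log2 units (SE 0.137, edgeR adjusted p = 0.00705). Bst2, which tethers enveloped viruses to the cell, rose by 0.86 log2 units (SE 0.118, edgeR adjusted p = 0.0105). Parp14, an ADP-ribosyltransferase, rose by 0.75 log2 units (SE 0.123, edgeR adjusted p = 0.0206). The fold changes of Isg15 and Usp18 lay above the median of this list and those of Uba7, Ube2l6, Herc6 and Trim25 below it. The count of called genes was 15 without EYFP 1, 3 without EYFP 2, 22 without EYFP 3, and 1 without EYFP 4, ATG7 2 or ATG7 3. Bst2 lost its call without EYFP 4, ATG7 2 or ATG7 3 (adjusted p = 0.0509, 0.0537 and 0.0729), Parp14 without those or EYFP 2 (adjusted p between 0.0669 and 0.123), and Gbp2 kept it whichever library was left out (edgeR). Without EYFP 3 the log2 fold changes of Gbp2, Bst2 and Parp14 were 1.03, 0.77 and 0.67 (edgeR adjusted p = 0.00310, 0.0101 and 0.0293).

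**Figure D4:**
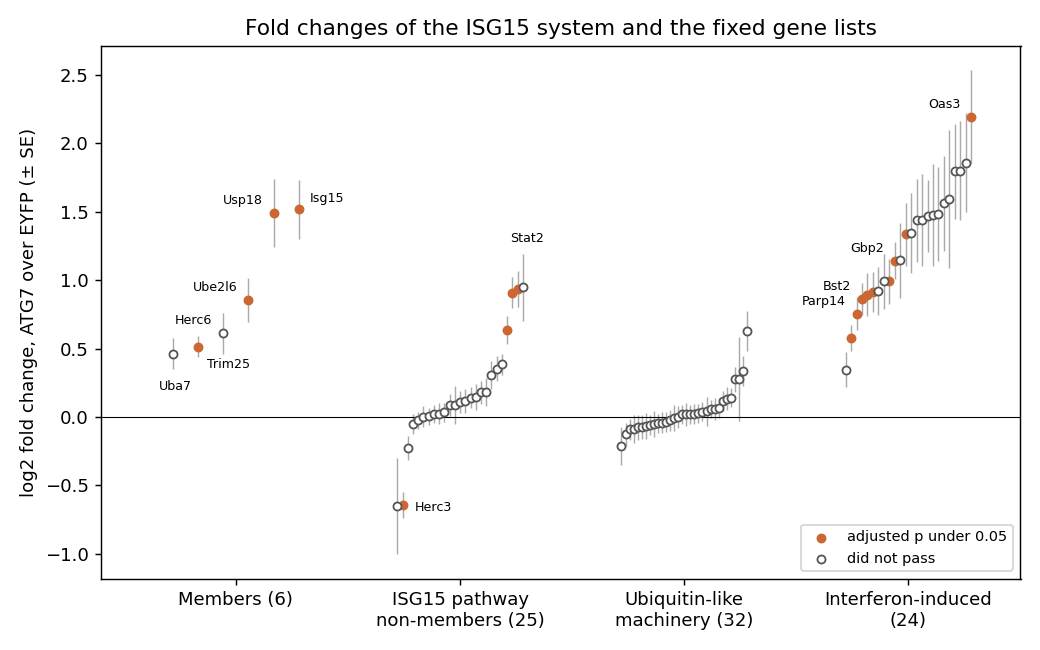
Log2 fold change of ATG7 over EYFP with its SE for the 6 genes, 25 other genes of the pathway, 32 genes of ubiquitin-like machinery and 24 interferon-induced genes, sorted within each list; filled points passed an adjusted p of 0.05. Most machinery genes lie near 0, while Isg15 and Usp18, at 1.52 and 1.49, lie within the range of the interferon-induced genes.

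The genes whose levels followed each member most closely were found by Pearson's r of log2 CPM over the 7 libraries, among 15041 other genes with a mean of at least 1 CPM. These r values are a description: the libraries share the group difference, and r after removing the group means is given with them. For Isg15 the nearest was Usp18 (r = 0.999, and 0.996 about the group means), then Ccl12 (0.998 and 0.997), a chemokine, and Oas3 (0.997 and 0.980), a sensor of double-stranded RNA. For Usp18 they were Isg15, Ccl12 (0.998 and 0.991) and Sp100 (0.998 and 0.989), a nuclear body protein. Uba7 was followed most closely by Trim30d (0.992), Apobec3 (0.991) and Trafd1 (0.990), and Herc6 by Oas1b (0.991), Spon1 (0.988) and Nlrc3 (0.986). For Ube2l6 they were Cybb (0.997), a subunit of the phagocyte oxidase, Slfn2 (0.996) and Cxcl16 (0.996). Trim25 was nearest to H2-T23 (0.996), a class I histocompatibility gene, Apobec1 (0.993) and Cd274 (0.992), which encodes the ligand PD-L1. About the group means r for these 12 genes lay between 0.943 and 0.989. Over the 6 libraries without EYFP 3, Usp18 and Isg15 remained nearest to each other (r = 0.999) and Cybb to Ube2l6 (0.999). Trim30d then ranked number 15 for Uba7, Oas1b number 2 for Herc6 and H2-T23 number 5 for Trim25. None of the other 4 members had a member among its 3 nearest over the 7 libraries.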

How the data were processed

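The authors deposited raw counts per Ensembl gene for 7 libraries, 1 column each. The submitters' processing notes name fastp 0.20.1, HISAT2 2.0.5, featureCounts, mm10 and GRCm38; annotation release, strand setting and treatment of shared reads are not given in the sources used here. Columns were matched to samples by name, with 0 unmatched. Symbols, coordinates and exon lengths came from GENCODE M21 on GRCm38, which named 55141 of 55401 identifiers. The 37 mitochondrial genes were at 0.

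ATG7 was tested against EYFP by quasi-likelihood in edgeR 4.0.16 (R 4.3.3; TMM scaling, filterByExpr, robust dispersion, no covariate, all 7 libraries), adjusted over 19199 genes. SE is the absolute log2 fold change over the square root of F. Values are TMM-scaled CPM, with a prior count of 2 for log2 CPM. On simulated data 68.7% of 195 genes changed 2-fold were called among 18846 run, and 6.94% of calls were unchanged genes. For genes changed 1.5-fold 43.5% of 193 were called, and for those changed 3-fold 85.0% of 193. Unchanged genes were then 9.68% and 10.9% of calls. Alternatives used DESeq2 1.42.0, limma 3.58.1, other scalings and filters, a replicate block and each library left out; ratios, levels, marker sums and nearest patterns without EYFP 3 were added after seeing the data. Pairs within a group differed by a chi-square of 20.4 to 44.5 per degree of freedom, so each library counted as 1 replicate.

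The members and lists were chosen with earlier results of these data known. Named are all 6 members, the closest paralogs, Atg7, up to 3 called genes of each list with the smallest p (the single smallest p where none was called) and the 3 genes nearest in pattern to each member. Other genes named fall outside that rule, and were named after their values were seen. They are Irf9, Ddx58, Mavs, Ubd, Xist, Ddx3y, Plac8, Ly6c2 and the integrin, receptor, kinase, other HERC, lymphocyte and interferon genes. A few genes that the rule names are not reported here. A floor of 3 counts is 0.0546 to 0.0820 CPM.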

Additional observations from a re-analysis of the deposited data

How the results depend on the processing

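Over the 15 alternatives every member kept a positive fold change. The log2 fold change ranged from 1.35 to 1.70 for Isg15, 1.32 to 1.67 for Usp18, 0.38 to 0.56 for Uba7, 0.72 to 1.00 for Ube2l6, 0.51 to 0.76 for Herc6 and 0.46 to 0.57 for Trim25. The median of the 6 ranged from 0.64 to 0.85, and that of all genes stayed between -0.024 and 0.0031. The adjusted p ranged more widely, for Isg15 from 1.52e-09 (DESeq2) to 0.224 (replicate block). Leaving out 1 library gave 28 to 277 called genes and 0 to 6 called members. With no filter 297 genes were called (234 higher, 63 lower), and with DESeq2 582 (406 higher, 176 lower), against 145 (132 higher, 13 lower). With limma-voom 208 were called (183 higher, 25 lower). DESeq2 called all 6 members. With no filter 3 were called: Ube2l6, Trim25 and Uba7, while Isg15 and Usp18 lost the call. Uba1 turned to -0.00079 with library size alone; leaving out 1 library gave -0.0104 (without EYFP 1) to 0.042. Ube2l3 turned to 0.0355 without EYFP 2, 0.00761 without ATG7 1 and 0.0613 without ATG7 2, in a range from -0.11, and Atg7 to 0.0351 without ATG7 1, in a range from -0.083. The cause was not tested.

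Replicate numbers are shared between the groups. Deviations of same-numbered libraries from their group means correlated at -0.0609, -0.182 and 0.0664. With so few libraries these values cannot settle whether the numbers mark pairs. EYFP 3 correlated best with its own number, and EYFP 1 and EYFP 2 did not. Blocking on the replicate number called 0 genes and 0 members, with log2 fold changes of 1.55 for Isg15 and 1.53 for Usp18. The counts of the members were between 255 and 8005 in each library, and whether depth limited their calls was not tested.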

Other observations

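Transcripts of the interferons themselves were few. Ifnb1, which encodes interferon beta, had 14, 17, 1 and 7 counts in EYFP 1 to 4 and 15, 75 and 41 counts in ATG7 1 to 3. EYFP 3, with the fewest Ifnb1 counts, also had the lowest Isg15 level. ATG7 1, at 0.375 CPM of Ifnb1, was close to EYFP 1 (0.382 CPM) and EYFP 2 (0.371 CPM). Its Isg15 level was 18.0 CPM, against 11.0 and 8.81 CPM in those libraries. ATG7 2 had the most Ifnb1 and ATG7 3 the most Isg15. A link between Ifnb1 and Isg15 was not tested. Ifng, which encodes interferon gamma, had between 0 and 1 counts in EYFP and between 3 and 6 in ATG7. The 14 interferon alpha genes together had between 0 and 3 counts in a library. Ifnl2 and Ifnl3, which encode interferon lambda, were listed at 0 in every library.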
